A study of Mus musculus with 2 samples.

Results

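The neutrophil granule protein genes examined here were 7 rows of the count matrices, chosen by symbol from 55357 gene rows: Lcn2, Ltf, Ngp, Camp, Prtn3, Mpo and Elane. All 7 were found. The libraries came from lungs of female Balb/C mice that carried orthotopic K7M2 osteosarcoma, a mouse bone tumour line. One library was from mice given 1V209-Cho-Lip, a preparation of the Toll-like receptor 7 agonist 1V209, and the other from mice given PBS. Each was a single 10x Genomics droplet library. The series description says that lungs of 3 mice were pooled for each, while the sample titles speak of 1 mouse. Both groups carried the tumour. Age, dose, route and time of treatment were not given in the sources used here. With 1 library per group, what the treatment did cannot be told apart from differences between the animals or between the library preparations, and no difference below was tested. Every interval is a 95% exact interval that covers counting error only: Poisson for a level, Clopper-Pearson for a share of cells, and conditional binomial for a ratio of the 1V209-Cho-Lip over the PBS value. The limit that a count of 0 allows is taken as 3 counts and is not such an interval.

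Neutrophils pack antimicrobial proteins into granules that are filled one after another while the cell matures in the bone marrow. Myeloperoxidase (Mpo), neutrophil elastase (Elane) and proteinase 3 (Prtn3) belong to the azurophil or primary granules, whose transcripts are made at the promyelocyte stage. Lactoferrin (Ltf), which binds iron, lipocalin 2 (Lcn2), which binds bacterial siderophores, the cathelicidin precursor (Camp) and neutrophilic granule protein (Ngp) belong to the specific or secondary granules, whose transcripts are made later, at the myelocyte and metamyelocyte stages. Circulating and tissue neutrophils carry the proteins but have lost much of the RNA. Lcn2 is also an acute-phase gene that epithelial and stromal cells can make.

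In mm10 with GENCODE vM21, Lcn2 (ENSMUSG00000026822) lies on the minus strand at chr2:32384633-32388252. Ltf (ENSMUSG00000032496, plus strand, chr9:111019271-111042767), Ngp (ENSMUSG00000032484, plus strand, chr9:110419747-110423012) and Camp (ENSMUSG00000038357, minus strand, chr9:109847379-109849617) share a chromosome, with 8 protein-coding genes between Camp and Ngp and 20 between Ngp and Ltf. Prtn3 (ENSMUSG00000057729, chr10:79874476-79883174) and Elane (ENSMUSG00000020125, chr10:79886247-79888215) are plus-strand neighbours 3072 bases apart with no protein-coding gene between them. Mpo (ENSMUSG00000009350) lies on the plus strand at chr11:87793581-87804413. The Prtn3 model overlaps Plppr3 and the Mpo model overlaps Gm11505, so reads there could belong to either gene if strand was not used in counting.

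The promoters of 6 members are printed to set the specific granule genes beside the azurophil pair and to show where letters of myeloid motifs stand in each. Each is the stretch upstream of the RefSeq start on GRCm38.p6, read 5′ to 3′ on the gene's strand, without bases that GENCODE places in an untranslated region. Capitals mark matches, on either strand, to the C/EBP letters TTGCNNAA or the PU.1 letters GAGGAA, 2 motifs of myeloid transcription factors that do not overlap each other here. The stretches are chr2:32387798-32387989 for Lcn2, where a longer GENCODE Lcn2 model also has coding sequence, chr9:111019042-111019270 for Ltf, chr9:110419558-110419746 for Ngp, chr9:109849618-109849706 for Camp, chr10:79879417-79879613 for Prtn3, which lies inside the longer GENCODE model of that gene, and chr10:79886062-79886246 for Elane.
Lcn2: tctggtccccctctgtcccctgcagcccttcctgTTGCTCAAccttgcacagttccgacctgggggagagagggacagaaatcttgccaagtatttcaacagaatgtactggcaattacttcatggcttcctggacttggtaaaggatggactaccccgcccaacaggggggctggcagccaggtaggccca
Ltf: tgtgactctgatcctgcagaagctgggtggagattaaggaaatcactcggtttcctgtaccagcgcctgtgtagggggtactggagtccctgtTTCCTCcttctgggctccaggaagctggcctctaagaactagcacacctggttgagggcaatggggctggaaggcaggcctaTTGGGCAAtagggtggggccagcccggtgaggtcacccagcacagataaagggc
Ngp: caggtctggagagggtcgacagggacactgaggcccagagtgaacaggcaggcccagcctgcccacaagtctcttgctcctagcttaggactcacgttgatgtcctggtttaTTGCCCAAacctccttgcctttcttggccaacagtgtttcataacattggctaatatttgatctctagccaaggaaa
Camp: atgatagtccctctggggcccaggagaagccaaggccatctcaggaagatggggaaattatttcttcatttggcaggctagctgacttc
Prtn3: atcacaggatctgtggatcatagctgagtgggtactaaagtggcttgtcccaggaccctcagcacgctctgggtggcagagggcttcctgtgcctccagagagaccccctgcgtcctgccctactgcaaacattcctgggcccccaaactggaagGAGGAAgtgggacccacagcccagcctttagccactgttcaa
Elane: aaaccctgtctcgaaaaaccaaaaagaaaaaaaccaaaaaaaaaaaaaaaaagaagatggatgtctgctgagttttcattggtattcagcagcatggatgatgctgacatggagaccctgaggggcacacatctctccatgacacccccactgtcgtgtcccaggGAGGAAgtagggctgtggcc

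Over the full 250 bases before the start, the C/EBP letters were in Lcn2, Ltf and Ngp, 3 of the 7 members, against 9.56% of 32851 RefSeq promoters. The PU.1 letters were in Lcn2, Ltf, Prtn3, Mpo and Elane, 5 members, against 23.3% of promoters. In the azurophil neighbours Prtn3 and Elane these letters stood 95 and 85 bases before the start. The RUNX letters TGTGGT were in 0 members and in 14.0% of promoters. A match is a description of letters and not evidence of binding, and the lack of one in Camp says only that the letters are not in this window.

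The libraries held 54843992 and 58156102 UMIs (unique molecular identifiers, counts of captured RNA molecules) over 13740 and 14622 barcodes, 1V209-Cho-Lip first here and below. After quality filters and doublet calls 12265 and 12654 cells were kept. Cells with at least 3% of UMIs from S100a8 and S100a9, the calprotectin genes, were gated as neutrophils: 4290 (35.0%, 34.1 to 35.8) and 1400 (11.1%, 10.5 to 11.6) cells, a ratio of shares of 3.16 (2.98 to 3.36). The gate was checked against genes it did not use. The receptor gene Csf3r had a UMI in 95.3% and 90.6% of gated cells against 16.4% and 7.27% of the others, and Cxcr2 in 88.6% and 65.9% against 10.0% and 2.43%. Of genes of other cell types, Cd3e had one in 0.862% and 1.07% of gated cells, Cd79a in 1.17% and 2.14%, and Pecam1 in 5.83% and 4.71%. The surfactant gene Sftpc, however, had one in 32.0% and 34.9% of gated cells, near the 36.6% and 39.8% of the others. Neutrophils had a median of 2403 and 1447 UMIs, so shares of cells with a UMI are given after thinning each cell to 1000 UMIs (4211 and 1222 cells, with 79 and 178 shallower cells left out) and also unthinned. Of the barcodes, 268 occurred in both libraries, 82 and 19 of them gated as neutrophils.

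Of the specific granule members, Lcn2 was found in the largest share of neutrophils in both libraries, and its level was higher in the 1V209-Cho-Lip library. Its level in neutrophils was 2216 CPM (counts per 1000000 UMIs of the gated cells, 2189 to 2243, from 26325 UMIs) in the 1V209-Cho-Lip library and 1260 CPM (1214 to 1307, from 2817 UMIs) in the PBS library, a ratio of 1.76 (1.69 to 1.83). After thinning, 57.6% (56.1 to 59.1) and 40.8% (38.1 to 43.7) of neutrophils had a Lcn2 UMI, and unthinned 71.5% and 42.9%. Among cells thinned to 1000 UMIs, 12.5% (11.6 to 13.6) and 6.38% (5.08 to 7.90) held 5 or more Lcn2 UMIs. In T-like cells, which should lack the gene, 1.35% and 0.146% of thinned cells had one, at unthinned medians of 3379 and 2801.5 UMIs. The ratio was above 1 under each alternative tried, and was lowest, at 1.43, when the gate asked for 10% of UMIs. The neutrophils also differed in the share of UMIs from S100a8 and S100a9 (medians 12.97% and 9.25%), and the part of that in the Lcn2 difference was not tested.

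Ltf, Ngp and Camp were different: nearly all of their RNA sat in very few cells, and no direction between the libraries held under every setting tried. Ltf was at 256 CPM (247 to 265, 3036 UMIs) and 230 CPM (211 to 251, 515 UMIs), a ratio of 1.11 (1.01 to 1.22). Ngp was at 1230 CPM (1210 to 1250, 14613 UMIs) and 1326 CPM (1278 to 1374, 2964 UMIs), a ratio of 0.928 (0.892 to 0.966). Camp was at 534 CPM (521 to 547, 6341 UMIs) and 935 CPM (895 to 976, 2090 UMIs), a ratio of 0.571 (0.543 to 0.600). These intervals treat UMIs as independent and are too narrow, because a single PBS neutrophil supplied 32.2% of the Ltf UMIs (166), 33.7% of the Ngp UMIs (1000) and 37.8% of the Camp UMIs (790) of the PBS neutrophils. Without the richest cell of each gene in each library, the ratio was 1.49 for Ltf, 1.31 for Ngp, which turned its direction, and 0.820 for Camp. Without neutrophils that carried 3 or more markers of another cell type, Ltf was at 1.76, Ngp at 1.52 and Camp at 1.03 (0.964 to 1.10). That setting also removes the PBS cell above (3 erythroid markers). In the 1V209-Cho-Lip library the richest cell of each gene held 8.37% of Ltf, 6.14% of Ngp and 10.3% of Camp UMIs of neutrophils.

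**Figure D1:**
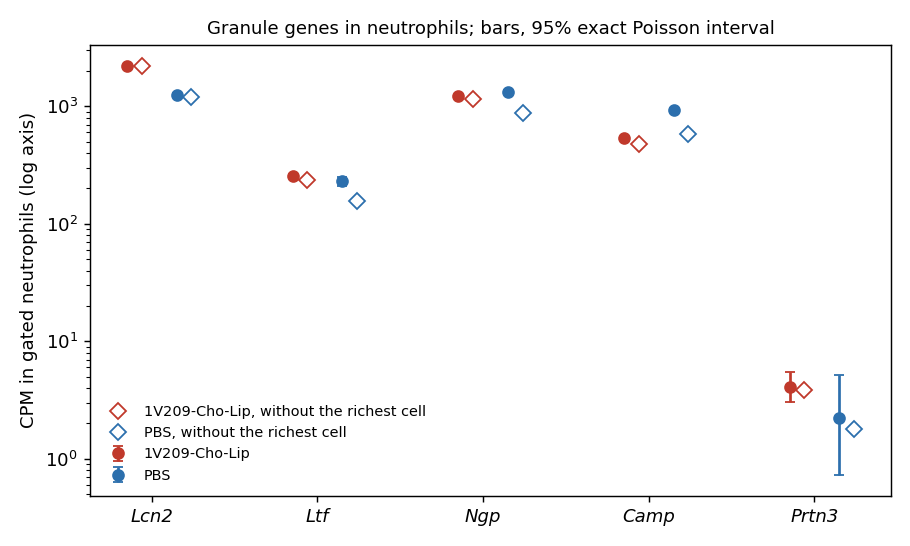
Level (CPM, log axis) of the 5 members with more than 1 UMI in gated neutrophils of the 1V209-Cho-Lip (red) and PBS (blue) library; bars are 95% exact Poisson intervals, and open diamonds give the level without the gene's richest cell. Lcn2 stays higher in the 1V209-Cho-Lip library either way (2216 against 1260 CPM with all cells), whereas the PBS values of Ltf, Ngp and Camp drop when 1 cell is left out, Ngp from 1326 to 884 CPM.

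Of the 7 members, 5 reached 20 UMIs in neutrophils over both libraries. Of these, 2 (Lcn2 and Prtn3) were at least 1.5-fold higher in the 1V209-Cho-Lip library, where 17.9% of 11501 genes measured in neutrophils were. Prtn3 had an interval that held 1. Camp was at least 1.5-fold lower, beside 13.8% of genes, and it fell short of that size without the richest cells.

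The richest 1% of neutrophils, 43 and 14 cells, held 98.3% and 95.9% of Ltf UMIs, 95.9% and 95.6% of Ngp UMIs, and 99.4% and 99.1% of Camp UMIs. The same share of cells held 21.5% and 23.6% of Lcn2 UMIs. Of Lcn2, 95.1% of UMIs in the 1V209-Cho-Lip library lay in the richest 50% of neutrophils, and 100% in the PBS library.

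**Figure D2:**
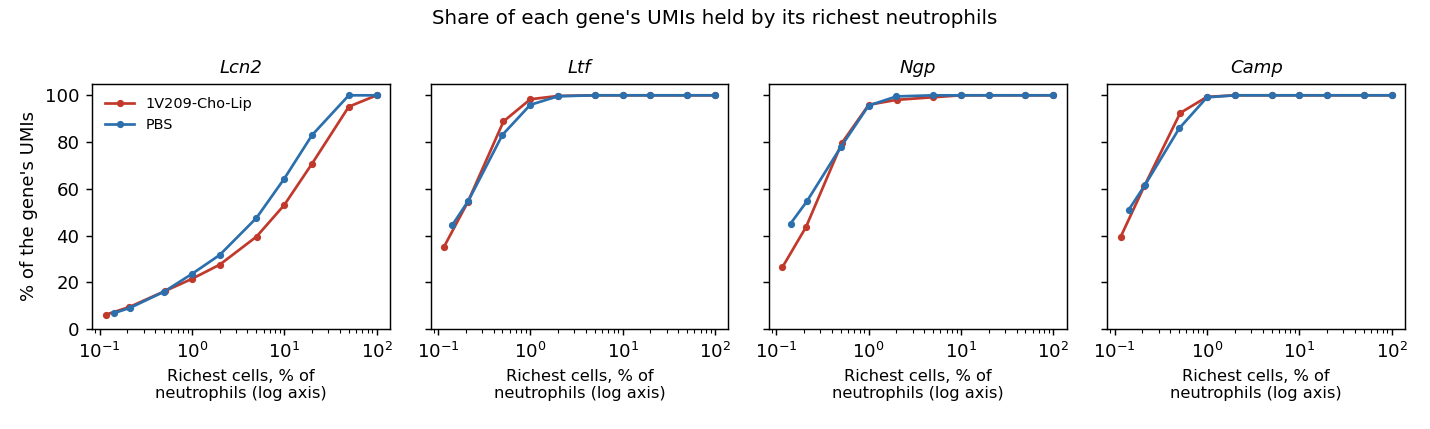
Percent of each gene's UMIs (vertical axis) held by the richest cells of that gene, as a percent of gated neutrophils (log axis), in the 1V209-Cho-Lip (red) and PBS (blue) library. Ltf, Ngp and Camp pass 95% within the richest 1% of cells in both libraries, while the Lcn2 curves reach 21.5% and 23.6% there.

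Neutrophils with a UMI of at least 3 of Lcn2, Ltf, Ngp and Camp, called granule-rich here, numbered 53 of 4290 (1.24%, 0.927 to 1.61) and 16 of 1400 (1.14%, 0.655 to 1.85). Cells with 0, 1, 2, 3 and 4 of these genes numbered 1164, 2761, 312, 16 and 37 in the 1V209-Cho-Lip library and 780, 575, 29, 2 and 14 in the PBS library. After thinning to 1000 UMIs the granule-rich cells were 38 of 4211 (0.902%, 0.639 to 1.24) and 15 of 1222 (1.23%, 0.689 to 2.02), a ratio of shares of 0.735 (0.395 to 1.44). At this gate a difference in either direction was not detectable at these numbers of cells. With the gate at 10% of UMIs the ratio was 0.508 (0.274 to 0.992). Median depth was 7001 and 4292.5 UMIs in granule-rich cells and 2394 and 1442.5 in the other neutrophils. The sum of Ltf, Ngp and Camp UMIs in a granule-rich cell ranged from 2 to 1794 with a median of 257 in the 1V209-Cho-Lip library, and from 4 to 1956 with a median of 203 in the PBS library. Of the granule-rich cells, 10 and 1 had a sum under 10 and thus lay close to the limit of the class. Markers of another cell type, 3 or more, were in 3 of the 53 and 3 of the 16 cells (5.66% and 18.8%), against 8.33% and 9.97% of the other neutrophils.

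The members chose these cells, so their values within them are a description. Ngp ranged over 0, 194 and 897 UMIs (lowest, median and highest cell) in the 1V209-Cho-Lip library and over 1, 107 and 1000 in the PBS library. Camp ranged over 0, 41 and 650 and over 3, 76.5 and 790 UMIs, and Ltf over 0, 26 and 254 and over 0, 20.5 and 166 UMIs. Lcn2 ranged over 1, 77 and 349 and over 0, 32 and 122 UMIs. The ranges of the libraries overlapped for all 4 genes. Granule-rich cells held 97.3% and 96.1% of Ltf, 94.9% and 96.1% of Ngp, 99.4% and 99.7% of Camp, and 21.0% and 22.4% of Lcn2 UMIs of all neutrophils, with 3.56% and 3.44% of all neutrophil UMIs. The Lcn2 ratio was 1.59 (1.46 to 1.73) within granule-rich cells and 1.79 (1.72 to 1.88) in the other neutrophils, so it lay above 1 in both.

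Outside the granule-rich cells the other 3 genes were sparse in most cells. The highest counts in a single cell there were 107 and 32 UMIs of Ngp and 25 and 2 of Ltf. Of neutrophils with 20 or more UMIs of Ltf, Ngp and Camp together, 9 of 49 and 2 of 17 lay outside the class. Ngp was at 65.3 and 53.3 CPM, with a UMI in 3.03% (2.53 to 3.60) and 1.74% (1.08 to 2.65) of thinned cells, against 0.415% and 0% of T-like cells. Ltf was at 7.16 and 9.26 CPM, with 0.553% and 0.746% of thinned cells. Camp was at 3.14 and 2.78 CPM with at most 1 UMI in any such cell, and the thinned share, 0.289% (0.149 to 0.504) and 0.332% (0.0904 to 0.847), compared with 0.415% (0.113 to 1.06) and 0.0974% (0.0118 to 0.351) in T-like cells. These low values follow in part from the definition of granule-rich cells, which takes out cells with a Camp UMI, while T-like cells were not reduced in that way.

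Other granule and maturation genes were set beside each other in granule-rich and other neutrophils. Of 57 measured genes in 6 lists (the 4 specific members left out), 26 had a CPM ratio with the whole interval above 1 in both libraries, 9 had it below 1 in both, and 0 had opposite intervals. Over 11497 genes outside the 4 specific members, 2.51% had intervals above 1 in both libraries and 6.42% below 1 in both. Whether an interval leaves out 1 depends on the number of UMIs, which was not matched between the lists and all genes. The lists were also chosen with earlier results of these data known. In the remaining list genes an interval held 1 in at least 1 library, and some ratios lay on opposite sides of 1, such as those of Cd63 (2.05 and 0.885) and Itgb2 (1.41 and 0.885). Cells are not replicates, and depth differed between the 2 kinds of cell, so these counts describe the cells of 2 libraries.

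Of the 15 other genes on the specific granule list, all measured, 11 were among the 26. Ly6g, the surface marker used to define mouse neutrophils, was at 2298 against 103 CPM in the 1V209-Cho-Lip library (22.4-fold, 20.5 to 24.4) and at 1923 against 69.5 CPM in the PBS library (27.7-fold, 21.9 to 35.0). Cd177, a neutrophil surface glycoprotein, was 21.4- and 21.5-fold higher, and Cybb, the catalytic subunit of the phagocyte NADPH oxidase, 23.1- and 28.8-fold higher. Chil3, a chitinase-like protein, was 17.0- and 37.6-fold higher. The haptoglobin gene Hp (0.882 and 0.747) and the protease inhibitor gene Slpi (0.647 and 0.408) were on the specific list too and were lower in granule-rich cells.

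Of the azurophil list, Serpinb1a, an inhibitor of neutrophil serine proteases, was 35.7-fold (28.3 to 45.2) and 37.4-fold (21.4 to 66.4) higher in granule-rich cells and had a UMI in 34 of 53 and 10 of 16 of them. The lysozyme gene Lyz2 was 5.02- and 4.42-fold higher, and Srgn, the granule proteoglycan serglycin, was lower at 0.321 and 0.204. In granule-rich cells the azurophil members Mpo and Elane had 0 UMIs in both libraries, and Prtn3 had 2 UMIs in 1 cell and 0, too few to compare with other neutrophils. The cathepsin genes Ctsc (10 and 2 UMIs, ratios of 0.467 and 0.668) and Ctsz (13 and 2 UMIs, 0.351 and 0.315) had ratios under 1, with the PBS intervals holding 1. Of the gelatinase granule list, Mmp8 (3.65 and 5.50), Padi4 (5.76 and 2.70), Ckap4 (10.5 and 8.28) and Mmp9 (1.76 and 1.47) were higher and the metal transporter gene Slc11a1 (0.198 and 0.225) was lower.

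Of 11 measured secretory vesicle and surface genes, 4 were below 1 in both libraries (Csf3r, Cxcr2, Cd14 and Fcgr3) and 2 were above 1. Csf3r, the receptor for granulocyte colony-stimulating factor, was at 0.210 (0.177 to 0.248) and 0.0740 (0.0369 to 0.133) of its level in other neutrophils. The chemokine receptor gene Cxcr2 was at 0.373 and 0.266. The 2 above 1 were Fpr2 (2.40 and 1.96) and Itgam (1.78 and 1.90). Cebpe, the transcription factor gene needed for specific granules, was 14.0-fold (8.63 to 22.3) and 28.1-fold (12.0 to 65.7) higher and was found in 14 of 53 and 4 of 16 granule-rich cells. Spi1, the PU.1 gene, from the same list, was lower in both libraries (0.712 and 0.537). Of the cell-cycle list, 6 of 9 measured genes were above 1 in both libraries, beside 2.51% of all genes. However, Cdk1 and Ccnb2 had UMIs in 1 granule-rich cell of each library and Top2a in 2 and 1. Mki67, a marker of dividing cells, had them in 3 of 53 and 2 of 16. These list values rest on few cells.

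**Figure D3:**
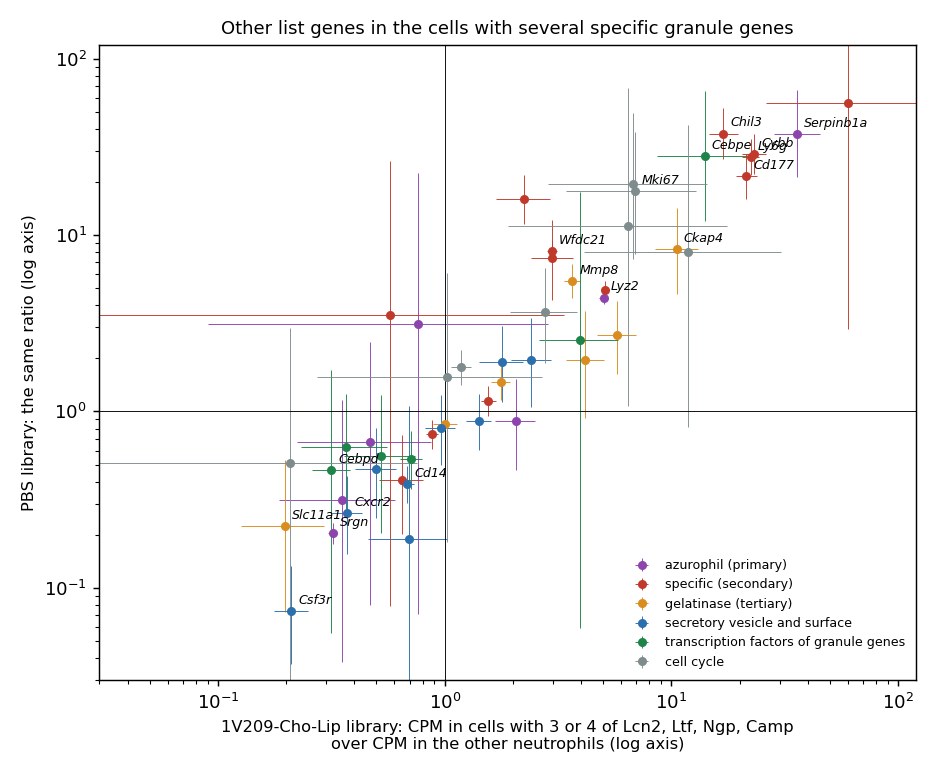
Each point is a gene of the granule, surface, transcription factor or cell-cycle lists, with Lcn2, Ltf, Ngp and Camp left out. The genes shown had at least 20 UMIs in 1V209-Cho-Lip neutrophils, and UMIs in both kinds of neutrophil in both libraries. Plotted is the CPM in granule-rich cells over the CPM in other neutrophils, in the 1V209-Cho-Lip library (horizontal) and the PBS library (vertical). Both axes are log axes, and bars are 95% exact intervals. Ly6g, Cybb, Cd177 and Serpinb1a lie above 20-fold in both libraries, and Csf3r, Cxcr2, Srgn and Slc11a1 lie below 1 in both.

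Ltf, Ngp and Camp were found together in the same cells. In thinned neutrophils, 36 of 49 Camp-positive cells in the 1V209-Cho-Lip library (73.5%, 58.9 to 85.1) and 15 of 20 in the PBS library (75.0%, 50.9 to 91.3) also had an Ngp UMI. Among Camp-negative cells the share with Ngp was 3.24% and 1.75%. Ltf was found in 67.3% and 75.0% of Camp-positive cells, and in 0.601% and 0.749% of Camp-negative cells. The reverse was less complete for Ngp, of whose positive cells 21.1% (15.2 to 27.9) and 41.7% (25.5 to 59.2) also had Camp. Lcn2 was in 93.9% and 80.0% of Camp-positive cells, against 57.2% and 40.2% of Camp-negative cells. Co-detection depends on depth, and unthinned 56.0% of Camp-positive cells of the 1V209-Cho-Lip library had Ngp and 46.4% had Ltf.

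Over 3752 genes with at least 50 UMIs, likeness to the summed specific members was taken as the Pearson correlation of log-transformed counts per 10000 across neutrophils, averaged over the libraries. The closest were S100a8 (0.32) and S100a9 (0.28), which define the gate, then Ly6g (0.25), Ifitm6 (0.25) and the resistin-like gene Retnlg (0.25). For the sum of Ltf, Ngp and Camp alone, a sum chosen after values were seen, the closest were Ly6g (0.40), Cybb (0.38), Cd177 (0.37), Serpinb1a (0.36) and Ifitm6 (0.35). The cells share a library and differ in depth, so these are descriptions. For the azurophil members the highest mean correlation was 0.08, on 54 Prtn3 UMIs and 1 Mpo UMI, which is no finding.

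The azurophil members Prtn3, Mpo and Elane had few or no UMIs in neutrophils. Prtn3 had 49 UMIs in 46 cells (4.12 CPM, 3.05 to 5.45) and 5 UMIs in 5 cells (2.24 CPM, 0.726 to 5.22), a ratio of 1.84 whose interval of 0.739 to 5.93 held 1. After thinning, 0.332% and 0.245% of neutrophils had a Prtn3 UMI. Mpo had 1 UMI in the 1V209-Cho-Lip library and 0 in the PBS library, and Elane had 0 in both. With the limit of 3 counts, a count of 0 allows up to 0.253 and 1.34 CPM of Elane, and up to 0.0699% and 0.214% of neutrophils with an Elane UMI. Ctsg and Bpi, further azurophil genes, and Gfi1, a transcription factor gene of granulocyte precursors, also had 0 UMIs in neutrophils of both libraries.

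Most Prtn3 UMIs were in classical monocyte-like cells, gated on Ly6c2, Ccr2, F13a1, Ms4a4c, Vcan and Fn1 (358 and 300 cells). These cells held 55.8% and 57.6% of all Prtn3 UMIs, against 8.24% and 2.30% in neutrophils. The level was 118 CPM (106 to 132) and 66.1 CPM (55.1 to 78.8), a ratio of 1.79 (1.45 to 2.21), beside 12.3% of 9533 genes of this type that were at least 1.5-fold higher. After thinning 9.83% (6.94 to 13.4) and 4.71% (2.60 to 7.78) of these cells had a Prtn3 UMI, and unthinned 39.9% and 25.7% at medians of 7434 and 5841 UMIs. In T-like cells the unthinned share was 0% and 0.240%. One cell of the 1V209-Cho-Lip library held 11.1% of the monocyte UMIs (37), and without the richest cells the ratio was 1.67. Interstitial macrophage-like cells (135 and 180) had Prtn3 at 85.1 CPM (68.6 to 104) and 10.2 CPM (4.69 to 19.5), a ratio of 8.30 (4.19 to 18.7), from 16 and 4 cells with a UMI, of which the richest 10 in the 1V209-Cho-Lip library held 93.5%. Fibroblast-like cells had 24.2 and 13.7 CPM, a ratio of 1.76 whose interval of 0.888 to 3.75 held 1.

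Elane, next to Prtn3 in the genome, had 13 and 3 UMIs in all kept cells, of which 12 and 2 were in classical monocyte-like cells. Mpo had 25 UMIs in 18 cells and 44 UMIs in 36 cells. Of the PBS cells with Mpo, 28 of 36 passed no cell type gate, and those had a median of 58249.5 UMIs each with at most 2 Mpo UMIs, so their level was near that of 1 UMI in a very deep cell. In the 1V209-Cho-Lip library 7 of the 25 Mpo UMIs were in 3 classical monocyte-like cells and 10 in 7 cells with no gate.

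Lcn2 was also higher in the 1V209-Cho-Lip library in most other cell types. Over 18 gated types including neutrophils, the interval of the Lcn2 ratio lay above 1 in 15 and held 1 in 3 (nonclassical monocyte, dendritic and mural-like cells), and lay below 1 in 0. Some of the 15 rest on few cells. In the 1V209-Cho-Lip library 1 cell held 75.0% of the Lcn2 UMIs of NK-like, 71.4% of erythroid-like and 75.0% of airway secretory-like cells. Without the richest cell of each library, the intervals of NK-like and erythroid-like cells held 1, with lower ends of 0.0647 and 0.524. In nonclassical monocyte-like cells, the type with a ratio under 1 (0.541), 1 PBS cell held 12 of 15 UMIs. Alveolar type 2 (AT2)-like cells, the surfactant-producing epithelium, had 2144 CPM (2075 to 2215) and 559 CPM (523 to 597), a ratio of 3.84 (3.56 to 4.13), beside 12.9% of 9279 genes of this type that were at least 1.5-fold higher. Of thinned AT2-like cells 53.4% (46.1 to 60.6) and 23.9% (18.5 to 30.0) had a Lcn2 UMI, and unthinned 84.7% and 63.8% at medians of 8918 and 6154 UMIs. Lcn2 in AT2-like cells was thus measured broadly in both libraries, and the type held 10.6% and 19.6% of all Lcn2 UMIs.

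Fibroblast-like cells differed most in size among types with at least 10 Lcn2 UMIs in each library. They had 741 CPM (696 to 789, 1011 UMIs in 70 of 297 cells) and 11.4 CPM (5.48 to 21.0, 10 UMIs in 6 of 224 cells), a ratio of 64.9 (35.1 to 136), where 14.9% of 9352 genes were at least 1.5-fold higher. One cell of the 1V209-Cho-Lip library held 24.1% of these UMIs and the richest 10 held 76.7%, and without the richest cell of each library the ratio was 83.2. In cells below 1% of UMIs from S100a8 and S100a9 it was 103 (47.1 to 281). Mesothelial-like cells had 368 CPM (17 of 42 cells with a UMI) and 5.85 CPM (1 of 29 cells). Ciliated-like cells had 341 CPM in 6 of 34 cells, with 52.1% of UMIs in 1 cell, and 0 UMIs in 22 PBS cells, which allows up to 19.1 CPM at the limit of 3 counts.

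**Figure D4:**
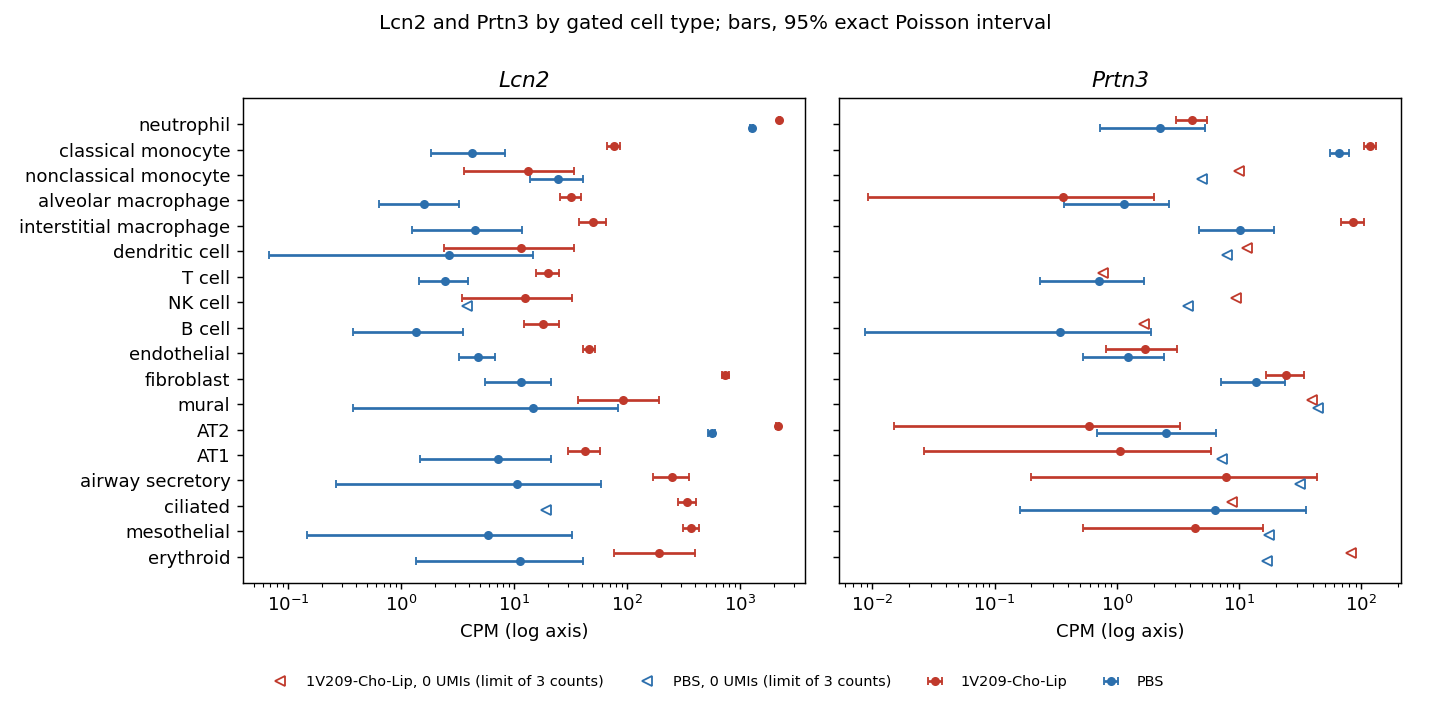
Level (CPM, log axis) of Lcn2 (left) and Prtn3 (right) in gated neutrophils and 17 other gated cell types of the 1V209-Cho-Lip (red) and PBS (blue) library; bars are 95% exact Poisson intervals and open triangles mark types with 0 UMIs at the limit of 3 counts. Lcn2 is highest in neutrophils and AT2-like cells in both libraries and reaches 741 CPM in fibroblast-like cells of the 1V209-Cho-Lip library, while Prtn3 is highest in classical monocyte-like cells (118 and 66.1 CPM).

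Neutrophil transcripts were also found more widely outside neutrophils in the 1V209-Cho-Lip library: S100a8 had a UMI in 55.3% and 11.9% of cells outside the gate. Levels per 1000 S100a8 UMIs are therefore given beside the CPM, since free RNA from neutrophils would keep the genes of that source in one proportion in every type. S100a8 also set the gate, so neutrophils were picked for a high share of it and other types for a low one. That choice lowers the value in neutrophils and raises it elsewhere, by an amount not measured. For Lcn2 this value was 41.2 and 33.7 in neutrophils. It was 56.3 and 77.3 in T-like, 49.8 and 29.4 in B-like and 42.6 and 24.0 in alveolar macrophage-like cells, while the Lcn2 CPM ratio was 8.10, 13.1 and 19.8 in these types. The alveolar macrophage ratio was 10.2 with called doublets kept and 9.22 in cells below 1% of UMIs from S100a8 and S100a9, and that of T-like cells 5.32 and 6.06. It was 4275 and 4983 in AT2-like cells and 1080 and 90.9 in fibroblast-like cells, 651 in mesothelial-like and 1300 in ciliated-like cells of the 1V209-Cho-Lip library. The Lcn2 of AT2-like cells, and of fibroblast-like cells in the 1V209-Cho-Lip library, was thus far above the proportion seen in neutrophils. Classical monocyte-like cells were at 72.9 and 54.4 and endothelial-like cells at 87.5 and 73.5. How much of the Lcn2 in any of these types, neutrophils included, was free RNA was not tested.

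Ngp per 1000 S100a8 UMIs was 22.9 and 35.5 in neutrophils, 16.6 and 13.6 in T-like cells and 16.7 and 14.2 in endothelial-like cells. Its CPM there was low, 5.86 and 0.433 in T-like and 8.82 and 0.923 in endothelial-like cells. In the 1V209-Cho-Lip library 2 gated cells set the values of their types: an AT1-gated cell with 113 Ltf and 135 Ngp UMIs, and an airway secretory-gated cell with 51 Ltf UMIs and 0 Ngp UMIs. Outside the neutrophil gate, 4 and 1 kept cells had 20 or more UMIs of Ltf, Ngp and Camp together, against 49 and 17 neutrophils.

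**Figure D5:**
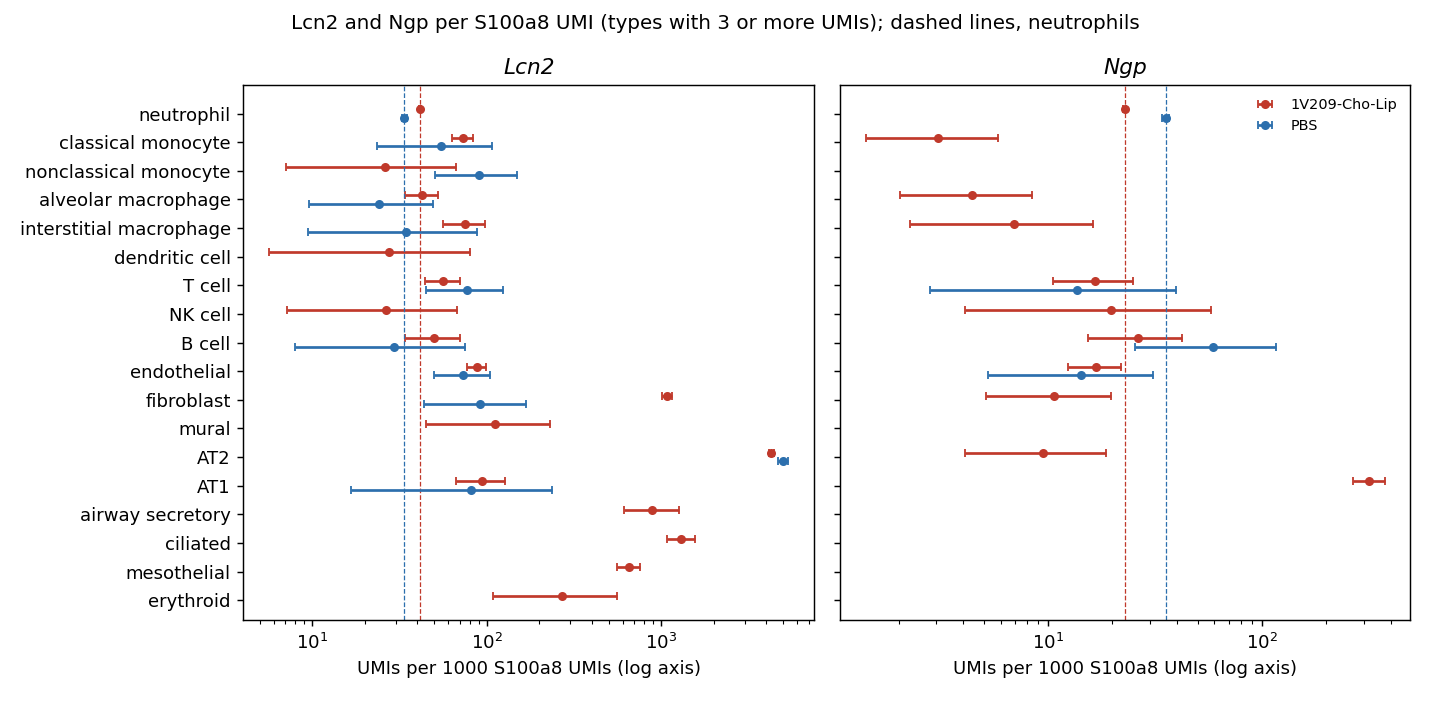
UMIs of Lcn2 (left) and Ngp (right) per 1000 S100a8 UMIs (log axis) by gated cell type, for types with 3 or more UMIs of the gene, in the 1V209-Cho-Lip (red) and PBS (blue) library; bars are 95% exact Poisson intervals of the member's count alone and dashed lines mark neutrophils. AT2-like cells of both libraries and fibroblast-like cells of the 1V209-Cho-Lip library lie far to the right of the Lcn2 lines, at 4275, 4983 and 1080, and the Ngp point of AT1-gated cells at 317 comes from 1 cell.

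Over all kept cells of a library, which mixes the level per cell with the number of neutrophils, every specific member was higher in the 1V209-Cho-Lip library. The ratio was 7.61 (7.38 to 7.85) for Lcn2, 5.66 (5.18 to 6.19) for Ltf, 5.05 (4.86 to 5.26) for Ngp and 3.07 (2.92 to 3.22) for Camp. Neutrophils supplied 76.6% and 61.9% of Lcn2, 91.7% and 87.3% of Ltf, 97.2% and 98.8% of Ngp and 99.0% and 99.3% of Camp UMIs. Prtn3 had a ratio of 2.76 (2.36 to 3.24), Elane 4.37 (1.20 to 23.9) on 13 and 3 UMIs, and Mpo 0.573 (0.336 to 0.957) on 25 and 44 UMIs. The Mpo interval held 1 with median-of-ratios scaling (0.653, 0.383 to 1.09) and without neutrophils (0.705, 0.410 to 1.19).

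In neutrophils as a whole, the granule, surface and transcription factor lists gave no common direction, while the cell-cycle list leaned lower. For the counts below, the shares over all 11501 genes measured in neutrophils were 17.9% at least 1.5-fold higher and 13.8% lower. Of the specific list 19 of 19 genes were measured, 5 at least 1.5-fold higher in the 1V209-Cho-Lip library and 1 lower, with a median log2 ratio of 0.15 beside -0.02 over all genes. Wfdc21, a whey acidic protein-domain gene, was at 1541 and 529 CPM (2.91-fold, 2.74 to 3.09), Ltb4r1, a leukotriene B4 receptor gene, at 81.3 and 42.9 CPM (1.89-fold), Hp at 2715 and 1999 CPM (1.36-fold), and Anxa1, the annexin A1 gene, at 1562 and 1080 CPM (1.45-fold). The 5 past 1.5-fold were Lcn2, Wfdc21, Ltb4r1, Itgb2l and Orm1. The intervals of Itgb2l (1.82) and Orm1 (1.81) held 1.

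Of the azurophil list 8 of 13 genes were measured, 1 higher (Prtn3, interval holding 1) and 0 lower, with a median of 0.06. Lyz2 (0.682) and Cd63 (0.678), a granule membrane gene, were lower but just short of the 1.5-fold limit, and Ctsz (1.06) and Srgn (0.923) were close to 1. Of the gelatinase list 7 of 8 were measured, with Mmp8, the neutrophil collagenase gene, higher (474 and 270 CPM, 1.75-fold, 1.61 to 1.91) and Padi4, the histone-citrullinating enzyme gene, lower (60.9 and 107 CPM, 0.570), beside 0.858 for the gelatinase gene Mmp9, 1.18 for Adam8 and 0.990 for Slc11a1. Of 11 secretory vesicle and surface genes, 1 was higher (Alpl, on 27 and 3 UMIs) and 0 lower, with a median of 0.29. Cd14, the lipopolysaccharide co-receptor gene, was at 1.22, Cxcr2 at 1.32, Csf3r at 0.817 and the integrin gene Itgb2 at 0.956.

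Of 7 measured transcription factor genes 3 were higher: Cebpd (809 and 55.0 CPM, 14.7-fold, 12.3 to 17.7), Klf5 (3.70-fold, 2.08 to 7.27) and Spi1, which encodes PU.1 (1116 and 715 CPM, 1.56-fold). Cebpe was lower, at 0.615 (0.393 to 0.995), but 13 of its 26 PBS UMIs came from 4 granule-rich cells, and without granule-rich cells it was at 0.812 (0.438 to 1.62). Cebpb (1.07) and Runx1 (0.884) were close to 1. Of 9 measured cell-cycle genes 0 were higher and 5 lower (Cdk1, Top2a, Mki67, Birc5 and Stmn1), with a median of -0.88. The lowest was Cdk1 (12 and 13 UMIs, 0.174), which was at 0.283 without granule-rich cells. Top2a was at 0.385 (0.226 to 0.673), Mki67 at 0.389 (0.249 to 0.617) and Birc5 at 0.481 (0.214 to 1.18). Without granule-rich cells Mki67 was at 0.506 (0.294 to 0.907), Top2a at 0.522 (0.270 to 1.07) and Birc5 at 0.431 (0.168 to 1.24). Stmn1 was at 0.545 (0.374 to 0.810), Tubb5 at 0.701 and Pcna at 0.884, while Hmgb2, the most abundant of the list, was at 1.33 (1.26 to 1.40).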

How the data were processed

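Lung cells of 1 library per group, pooled from 3 mice per the series description, were profiled with 10x Genomics single-cell RNA sequencing. The deposited values are UMI counts per gene and barcode, made by the authors with Cell Ranger 9.0.1, per the file headers, on mm10, per the submitters' processing notes. The labels describe both total RNA extraction and single-cell partitioning; the annotation release and counting settings were not given in the sources used here.

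Barcodes under 500 UMIs or 200 genes, or above 20% mitochondrial UMIs, were dropped. Doublets were called per library with Scrublet in Scanpy 1.11.5 (expected rate 0.8% per 1000 barcodes), removing 1455 and 1906. Neutrophils had at least 3% of UMIs from S100a8 and S100a9, and other types at least 3 markers and 2 more than any other type. In all, 2175 and 2916 cells passed no gate. Counts were summed per gate and scaled to 1000000 UMIs (CPM). No test of the groups was possible with 1 library each. Thinning drew 1000 UMIs per cell without replacement. Levels are not scaled by gene length and are not compared between genes.

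Members and gene lists were chosen with earlier results of these data known. All 7 members were named; of each list up to 4 genes with the most UMIs and the highest and lowest ratios were named, with 20 UMIs needed over both libraries. Genes named among the granule-rich cells, and list genes outside the rule (Ltb4r1, Itgb2l, Orm1, Klf5, Mki67, Top2a, Birc5), were chosen after their values were seen. The settings varied were the gate, doublets, depth, denominators, scaling and list limits. The interval and thinning code was tested on simulated data. Gene positions are from GENCODE vM21, and promoter sequences from RefSeq (GRCm38.p6), in which all 7 members matched. The software was scipy 1.17.1 with numpy 2.4.6 for intervals, anndata 0.12.19 and pandas 2.3.3 for tables and matplotlib 3.10.9 for plots, under Python 3.11.15.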

Additional observations from a re-analysis of the deposited data

Results flagged for a closer look

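In 5 cases a member's ratio in another cell type lay on the other side of 1 from its ratio in neutrophils, with both intervals leaving out 1. The difference itself was not tested. Ngp, at 0.928 in neutrophils, had a ratio of 14.3 (1.99 to 628) in alveolar macrophage-like, 13.5 (4.09 to 70.4) in T-like, 3.47 (1.42 to 9.29) in B-like and 9.55 (4.10 to 27.2) in endothelial-like cells. Camp, at 0.571 in neutrophils, had a ratio of 7.06 (1.03 to 304) in fibroblast-like cells, on 11 and 1 UMIs. The Ngp values rest on 9 and 1, 23 and 3, 17 and 8, and 52 and 6 UMIs, and without the richest neutrophils the Ngp ratio in neutrophils was itself above 1, at 1.31. S100a8 was higher in these types too, for example at 353 and 31.7 CPM in T-like cells. Per S100a8 UMI the Ngp ratios were 1.29, 1.22, 0.449 and 1.17 in the same order, and the Camp ratio was 1.29. Each of these intervals held 1. How much of these counts was free RNA was not tested.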

How the results depend on the processing

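No paired analysis was possible because each group was 1 library. The Lcn2 ratio in neutrophils was above 1 under each setting tried: 1.43 with the gate at 10%, 1.86 without cells carrying 3 or more markers of another type and 1.88 with median-of-ratios scaling. Ltf, at 1.11, turned to 0.759 (0.690 to 0.835) with the gate at 10%. It was 0.993 (0.911 to 1.08) with called doublets kept and 0.773 (0.469 to 1.33) without granule-rich cells, where both intervals held 1. Ltf was at 1.76 without cells carrying markers of another type and 1.49 without the richest cells, a setting chosen after seeing the data. Ngp, at 0.928, turned to 1.52, 1.23, 1.03 and 1.31 without cells carrying other markers, without granule-rich cells, as a mean over cells and without the richest cells. It was 0.891 with doublets, 0.633 at the 10% gate, 0.871 with at least 1000 UMIs per cell and 0.990 with median-of-ratios scaling. Camp, at 0.571, turned to 1.03 (0.964 to 1.10) without cells carrying other markers and 1.13 (0.472 to 3.28) without granule-rich cells. Both of these Camp intervals held 1. It was 0.389 at the 10% gate, 0.536 with at least 1000 UMIs, 0.609 with median-of-ratios scaling, 0.607 as a mean over cells and 0.820 without the richest cells. The cause of these shifts was not tested beyond the cells each setting leaves out. The ratio of neutrophil shares was 4.77 at the 10% gate. The Lcn2 ratio in AT2-like cells was 4.17 without the richest cells. Of 61 measured list genes, 11 were higher and 8 lower in the main analysis, close to the 17.9% and 13.8% of all genes measured in neutrophils. The counts were 7 and 4 of 47 with at least 100 UMIs and 3 and 4 of 61 at 2-fold. They were 9 and 7 of 57 without granule-rich cells (also chosen after seeing the data). Shares over all genes were not computed for these other settings. The ratio of granule-rich shares, 0.735 after thinning, ran from 0.508 (0.274 to 0.992) at the 10% gate to 1.08 without thinning. Depth limits every statement on Mpo, Elane and neutrophil Prtn3, and 1 library per group limits all others.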
